A study of Arabidopsis thaliana with 8 samples.

Results

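The circadian clock of Arabidopsis thaliana was followed through 36 loci, named by their place in the clock or in the CYCLING DOF FACTOR (CDF) family. They comprise CCA1 and LHY, 6 REVEILLE genes, 4 LNK genes, 5 pseudo-response regulators including TOC1, GI with the ZTL family, the evening complex, CHE, 4 CDF genes, COR27, COR28, TIC, JMJD5, GRP7 and GRP8. All 36 were found among 27634 rows, and all 36 passed the filter on low counts, as part of 18155 genes tested. RNA was taken from rosette leaves of 24-day-old plants, with 4 libraries of genotype DLK2-OE1 and 4 of genotype WT. DLK2-OE1 is a line named for overexpression of DLK2 (DWARF14-LIKE 2), an α/β hydrolase of the strigolactone and karrikin receptor family. Both genotypes grew for 11 days on Murashige and Skoog plates and then for 13 days on soil. The labels name a single overexpressing line, so what DLK2 does and what else sets this line off from WT cannot be told apart. The promoter that drives DLK2, the accession, the day length, the hour of harvest and any pooling of plants are not stated in the labels. The p-values therefore rest on library-to-library spread, part of which may be technical. Without the hour of harvest, a changed level and a shifted phase of a rhythmic transcript cannot be told apart.

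The Arabidopsis clock is a set of transcription factors that repress one another in turn through the day. CCA1 and LHY, MYB-like factors made around dawn, repress genes of the evening. The pseudo-response regulators PRR9, PRR7, PRR5 and TOC1 follow in sequence and repress CCA1 and LHY, the evening complex of ELF3, ELF4 and LUX represses day genes at night, and RVE8 with its LNK partners activates afternoon and evening genes. In leaves this oscillator times photosynthesis, starch use, cold responses and, through GI, FKF1 and the CDF repressors of CO and FT, the measurement of day length.

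DLK2 itself (AT3G24420) had 120, 150, 137 and 145 CPM (the count per library scaled by TMM) in the DLK2-OE1 libraries, against 60.4, 73.5, 85.1 and 73.4 CPM in the WT libraries. No DLK2-OE1 library overlapped a WT library, and the log2 fold change of DLK2-OE1 over WT was 0.92 (SE 0.12, adjusted p = 0.0178 from the edgeR quasi-likelihood fit, adjusted over all genes). The edgeR adjusted p was 0.0670, 0.0548 or 0.0574 when WT replicate 1, WT replicate 3 or DLK2-OE1 replicate 1 was left out. Library totals ranged from 18097159 to 22139801 counts. Along the first principal component (60.3% of variance), DLK2-OE1 replicates 1 and 2 lay at 61.5 and 87.4, DLK2-OE1 replicates 3 and 4 at 11.2 and -8.2, and the WT libraries between -47.5 and -27.7. Shoot apex transcripts followed the same split. STM, KNAT1, KNAT2 and KNAT6 summed to 40.9, 65.9, 9.17 and 9.76 CPM in DLK2-OE1 leaves against 0.177, 1.92, 0.248 and 0.459 CPM in WT leaves. EdgeR called 3 of 4 higher, beside 2.12% of all genes, and STM, KNAT1 and KNAT2 had no count in 3 of 4 WT libraries. Xylem cellulose synthase genes and IRX9 summed to 64.0, 169, 45.4 and 37.4 CPM in DLK2-OE1 leaves against 12.2, 16.0, 13.8 and 22.2 CPM in WT leaves. Of these 4, edgeR called 3 higher, beside the same 2.12% of all genes. The 6 green leaf markers were abundant in every library, at summed levels of 17837 to 37107 CPM in DLK2-OE1 leaves and 28047 to 42534 CPM in WT leaves. None of the 6 was called by edgeR, limma-voom or DESeq2, beside 3.69% of all genes in edgeR and 13.3% in DESeq2. An unadjusted edgeR p under 0.05 was found for 1 of 6, in the lower direction, beside 12.0% of all genes. With 1 library left out this edgeR count ranged from 0 to 4, the highest without DLK2-OE1 replicate 4. At an unadjusted p under 0.05 DESeq2 had 3 of 6 and limma-voom 2 of 6, all lower. Over all genes, in either direction, DESeq2 had 5657 and limma-voom 4567 at that level. All 6 had negative log2 fold changes, with a median of -0.46, and -0.21 with DLK2-OE1 replicates 1 and 2 left out. Of the flower markers, 2 were tested and edgeR called SEP3 lower, beside 1.58% of all genes. The 3 root hair markers had at most 0.0501 CPM in any library. In the shoot apex, xylem and flower lists edgeR made 7 calls and limma-voom 0, where limma-voom called 265 of all genes. The edgeR calls in these lists numbered 0 when WT replicate 1, 2 or 3 or DLK2-OE1 replicate 1 was left out. Over all genes those omissions left 13, 118, 0 and 14 calls in turn, against 670 with all libraries. In whole leaves, more or fewer cells of a type and more or less RNA per cell cannot be told apart.

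Among the 36 clock and CDF genes, LNK1 and CDF1 fell in DLK2-OE1 and none was called higher. These are 2 of 36 members called, beside 3.69% of all genes tested, which is 2 of 36 lower, beside 1.58% of all genes, and 0 of 36 higher, beside 2.12% of all genes. DESeq2 called 7 members, with 13.3% of its 20881 genes called. Of the 7, 6 were lower, beside 5.02% of its genes called lower, and 1, RVE1, was higher. Limma-voom called LNK1 and CDF1 and none higher. At an unadjusted edgeR p under 0.05 stood 11 members, or 30.6%, beside 26.3% of all genes. Of these 9 were lower, beside 12.0% of all genes, and 2 higher, beside 14.3%. The other 34 members were not called by edgeR. Log2 fold changes of DLK2-OE1 over WT ran from -0.86 to 0.77, with 23 negative and 13 positive and a median of -0.095, beside a median of 0.0039 over all genes tested. The median of the members ranged from -0.15 to -0.068 with 1 library left out, and was -0.015 with DLK2-OE1 replicates 1 and 2 both left out. In 27 members the log2 fold change was under 0.5 in size, and in none did it reach 1. The count of called members was 0 without WT replicate 1 and 0 without WT replicate 3, beside 13 and 0 of all genes called. It was 1 without DLK2-OE1 replicate 1, beside 14 of all genes called. It was 3 on omission of DLK2-OE1 replicate 3 and 4 on omission of DLK2-OE1 replicate 4. Those fits called 1368 and 2191 of all genes, against 670 with all libraries, so the count of members moved with the count of genes.

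**Figure D1:**
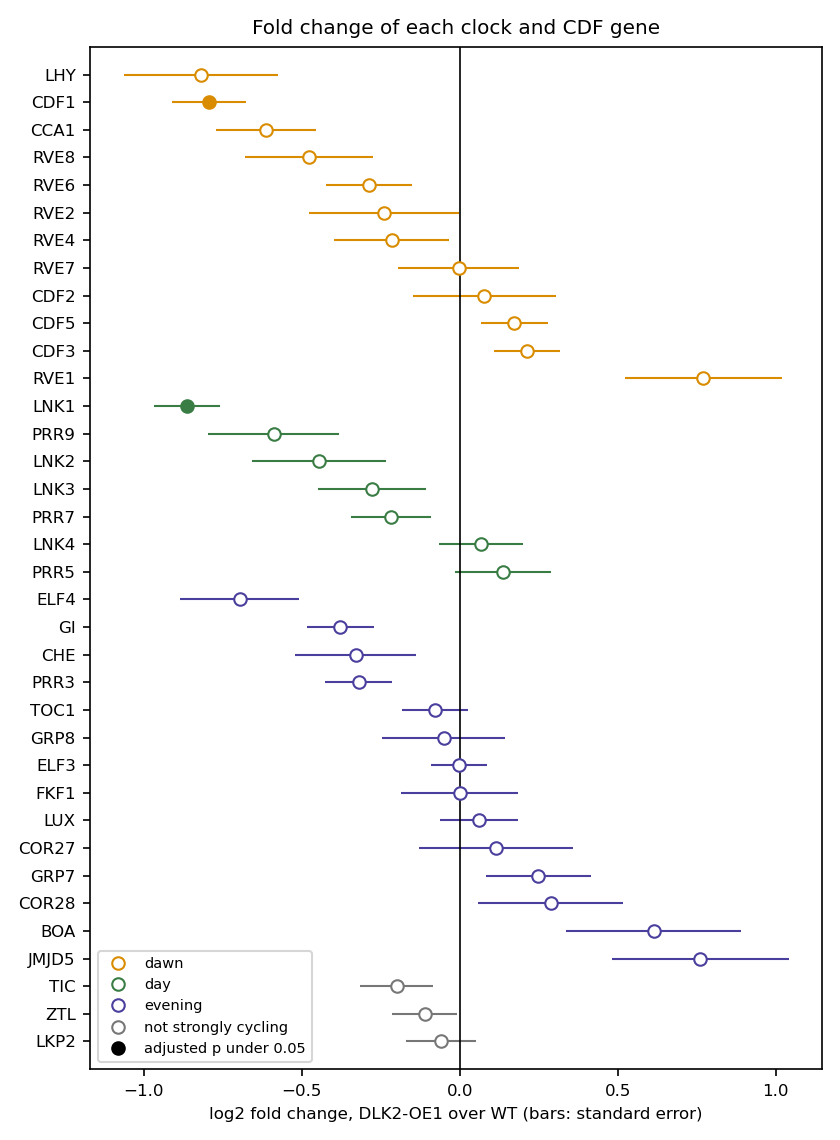
Log2 fold change of DLK2-OE1 over WT for each of the 36 clock and CDF genes, with its standard error as a horizontal bar, from the edgeR fit to 4 libraries per genotype; colours give the phase group and filled points an adjusted p under 0.05. LNK1 at -0.86 and CDF1 at -0.79 are the filled points, and most of the other points lie within 0.5 of zero.

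LNK1 (AT5G64170), a light-induced day-phased partner through which RVE8 activates its targets, had the smallest p of the members. It measured 25.8, 23.4, 24.3 and 21.3 CPM in the DLK2-OE1 libraries, against 43.5, 41.9, 49.6 and 37.7 CPM in the WT libraries. The 4 DLK2-OE1 libraries lay close together and well below the lowest WT library. The means were 23.7 ± 1.86 CPM in DLK2-OE1 leaves and 43.2 ± 4.93 CPM in WT leaves (SD, n = 4 each), a level 1.82-fold lower in DLK2-OE1. The log2 fold change was -0.86 (SE 0.10, adjusted p = 0.0147 in edgeR). Without DLK2-OE1 replicates 1 and 2, the libraries highest in shoot apex and xylem markers, it was -0.91 with an edgeR adjusted p of 0.0469. Without WT replicate 1 the edgeR adjusted p was 0.0670, and without WT replicate 3 it was 0.0548. On chromosome 5 of TAIR10.1, LNK1 spans 25672466 to 25676823 (minus strand), and it shares 245 bases with AT5G64160 on the opposite strand. That neighbour averaged 9.61 CPM in DLK2-OE1 leaves and 9.74 CPM in WT leaves, with a log2 fold change of -0.019.

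CDF1 (AT5G62430), a DOF-type repressor of CO and FT that FKF1 and GI mark for degradation, had 9.16, 8.02, 8.42 and 7.73 CPM in DLK2-OE1 leaves, against 16.9, 13.9, 14.0 and 13.0 CPM in WT leaves. All 4 DLK2-OE1 libraries again lay below all 4 WT libraries. CDF1 averaged 8.33 ± 0.622 CPM in DLK2-OE1 leaves and 14.4 ± 1.72 CPM in WT leaves (SD, n = 4 each), with log2 fold change -0.79 (SE 0.12, adjusted p = 0.0192 in edgeR). The edgeR adjusted p was 0.0601 without DLK2-OE1 replicates 1 and 2, with the log2 fold change at -0.83. Leaving out WT replicate 1, WT replicate 3 or DLK2-OE1 replicate 1 gave an edgeR adjusted p of 0.0685, 0.0893 or 0.0617. It spans 25069093 to 25071111 of chromosome 5 (minus strand).

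**Figure D2:**
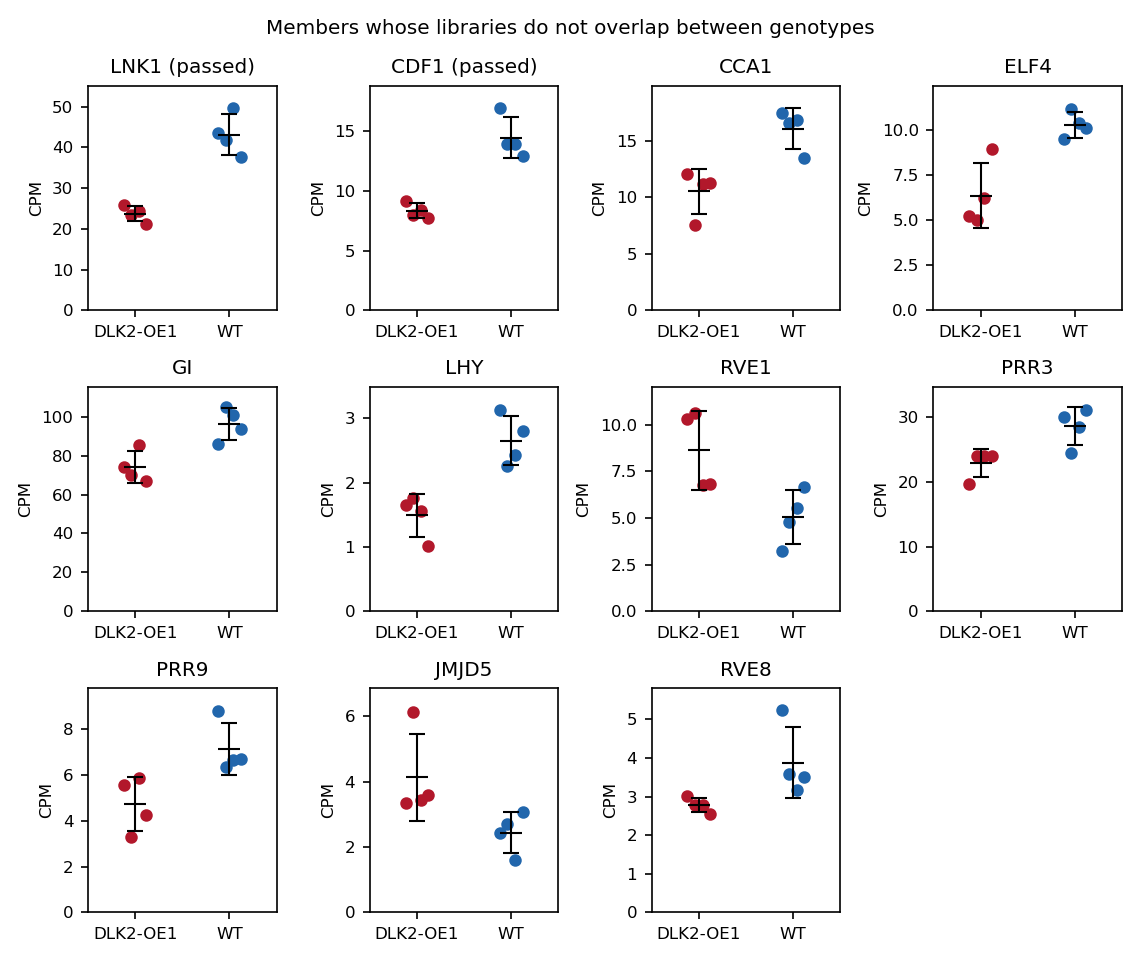
TMM-normalised CPM in each library for the 11 members whose DLK2-OE1 and WT libraries do not overlap, DLK2-OE1 in red at the left and WT in blue at the right of each panel; the horizontal line is the mean and the bar the SD of 4 libraries. All axes start at 0, and the 2 panels marked as passed, LNK1 and CDF1, have an edgeR adjusted p under 0.05.

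The libraries of both genotypes did not overlap for 11 of the 36 members, or 30.6%, beside 15.2% of all genes tested. Of these 11, 9 were lower in every DLK2-OE1 library, beside 7.29% of all genes, and 2 were higher in every DLK2-OE1 library, beside 7.87%. Besides LNK1 and CDF1, the 9 that missed the threshold were CCA1, LHY, RVE8, PRR9, ELF4, GI and PRR3 on the lower side and RVE1 and JMJD5 on the higher side. The number of members without overlap was 18 when WT replicate 4 was left out, beside 25.4% of all genes under the same omission. Without DLK2-OE1 replicate 3 it was 13, beside 22.2%, and without DLK2-OE1 replicate 4 it was 11, beside 24.6%. Without DLK2-OE1 replicates 1 and 2 it was 14, beside 25.8%.

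The dawn group holds CCA1, LHY, the 6 REVEILLE genes and the 4 CDF genes. CDF1 fell, and the other 11 were not called by edgeR. The median log2 fold change of the 12 was -0.23, with 8 negative and 4 positive. The median deviation of the dawn genes from their WT mean, on the log2 CPM scale, was -0.23, -0.45, 0.011 and -0.090 in DLK2-OE1 replicates 1 to 4 and 0.033, -0.012, -0.13 and 0.075 in WT replicates 1 to 4. The group was thus lowest in DLK2-OE1 replicates 1 and 2, and with both left out its median log2 fold change was -0.057.

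CCA1 (AT2G46830), the dawn repressor of evening genes, had 12.1, 7.59, 11.2 and 11.2 CPM in DLK2-OE1 leaves, against 17.5, 16.6, 16.8 and 13.5 CPM in WT leaves. The genotypes did not overlap, and DLK2-OE1 replicate 2 was the lowest library. The log2 fold change was -0.61 (SE 0.16, adjusted p = 0.0598 in edgeR), and the edgeR adjusted p ranged from 0.0482, without DLK2-OE1 replicate 4, to 0.171 when 1 library was left out. LHY (AT1G01060), its close relative and partner in dimers, had 1.65, 1.76, 1.55 and 1.02 CPM in DLK2-OE1 leaves, against 3.13, 2.26, 2.43 and 2.81 CPM in WT leaves. These rest on 33, 41, 29 and 18 counts in DLK2-OE1 and 53, 46, 49 and 55 counts in WT. LHY was lower in every DLK2-OE1 library, with log2 fold change -0.82 (SE 0.24, adjusted p = 0.0800 in edgeR). DESeq2 called both genes lower, with adjusted p-values of 0.0116 for CCA1 and 0.0243 for LHY.

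RVE8 (AT3G09600), an activator of evening genes that works with the LNK proteins, had 3.00, 2.79, 2.79 and 2.54 CPM in DLK2-OE1 leaves, against 5.25, 3.59, 3.18 and 3.52 CPM in WT leaves. Its DLK2-OE1 libraries lay close together, and WT replicate 1 stood above the other WT libraries. The log2 fold change was -0.48 (SE 0.20, adjusted p = 0.172 in edgeR), and -0.31 without WT replicate 1. RVE4 and RVE6, which share the activating role of RVE8, had log2 fold changes of -0.22 and -0.29 with overlapping libraries. RVE1 (AT5G17300), a MYB-like factor that links the clock to auxin synthesis, went the other way, with 10.3, 10.6, 6.76 and 6.83 CPM in DLK2-OE1 leaves, against 3.24, 4.76, 5.52 and 6.68 CPM in WT leaves. DLK2-OE1 replicates 3 and 4 were only just above WT replicate 4, and the log2 fold change was 0.77 (SE 0.25, adjusted p = 0.0976 in edgeR), and 0.43 without DLK2-OE1 replicates 1 and 2. RVE1 shares 225 bases with AT5G17305 on the opposite strand. RVE2 and RVE7 had log2 fold changes of -0.24 and -0.0039, and the sign of RVE7 was positive, at 0.26, without DLK2-OE1 replicates 1 and 2.

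The other 3 CDF members were not called by edgeR. CDF2, CDF3 and CDF5 had log2 fold changes of 0.078, 0.21 and 0.17, with edgeR adjusted p-values of 0.856, 0.225 and 0.326. CDF3, which also acts in cold and drought tolerance, had 17.6, 17.5, 15.2 and 15.2 CPM in DLK2-OE1 leaves, against 13.5, 14.4, 12.7 and 15.9 CPM in WT leaves, so that only WT replicate 4 kept the genotypes from separating. CDF2, a further repressor of CO, varied 2.04-fold among WT libraries, from 3.78 to 7.70 CPM, which spans its DLK2-OE1 range of 5.02 to 6.31 CPM. The difference of CDF1 from its relatives was not tested. AT2G34140, a Dof-type gene outside the members that is CDF4 in common usage, was too low for the edgeR filter, with 11, 23, 9 and 5 counts in DLK2-OE1 and 2, 1, 4 and 1 counts in WT. Its level was 0.551, 0.987, 0.483 and 0.282 CPM in DLK2-OE1 leaves, against 0.118, 0.0491, 0.199 and 0.0510 CPM in WT leaves, without overlap, and DESeq2 called it higher (adjusted p = 0.0211). CDF5 shares 1241 bases with the long non-coding RNA AT1G69572 on the opposite strand, and since the strand setting of the counts is not given, reads of the pair cannot be told apart.

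In the day group, LNK1 fell and the other 6 were not called by edgeR. The median log2 fold change of the 7 was -0.28, with 5 negative, and -0.18 without DLK2-OE1 replicates 1 and 2. Median deviations from the WT mean were -0.27, -0.50, -0.11 and -0.19 in DLK2-OE1 replicates 1 to 4 and 0.084, 0.034, -0.056 and -0.10 in WT replicates 1 to 4, so DLK2-OE1 replicate 3 lay just below the lowest WT library and the other DLK2-OE1 libraries farther below. PRR9 (AT2G46790), the morning pseudo-response regulator, had 5.56, 3.30, 5.84 and 4.23 CPM in DLK2-OE1 leaves, against 8.79, 6.34, 6.66 and 6.68 CPM in WT leaves. The genotypes did not overlap, and the log2 fold change was -0.59 (SE 0.21, adjusted p = 0.119 in edgeR). LNK2, which overlaps LNK1 in function, had 146, 93.4, 177 and 174 CPM in DLK2-OE1 leaves, against 216, 232, 200 and 155 CPM in WT leaves. DLK2-OE1 replicate 2 was far below the rest and WT replicate 4 fell among the DLK2-OE1 libraries, for log2 fold change -0.45 (SE 0.21, adjusted p = 0.214 in edgeR). Without DLK2-OE1 replicate 2 the log2 fold change of LNK2 was -0.28. LNK3 and LNK4, smaller relatives, had log2 fold changes of -0.28 and 0.067. PRR7 and PRR5, the daytime regulators that follow PRR9, had -0.22 and 0.14, with adjusted p-values of 0.299 and 0.598 in edgeR. LNK2, PRR7, CHE and RVE4 were lowest in DLK2-OE1 replicate 2, as were the summed green leaf markers. CCA1, RVE2, RVE6, RVE7, LNK4, PRR9, ELF4, ZTL, LKP2 and TIC were also lowest in that library, while RVE1, JMJD5 and GRP7 were highest in it. The part of leaf makeup in these values was not tested.

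**Figure D3:**
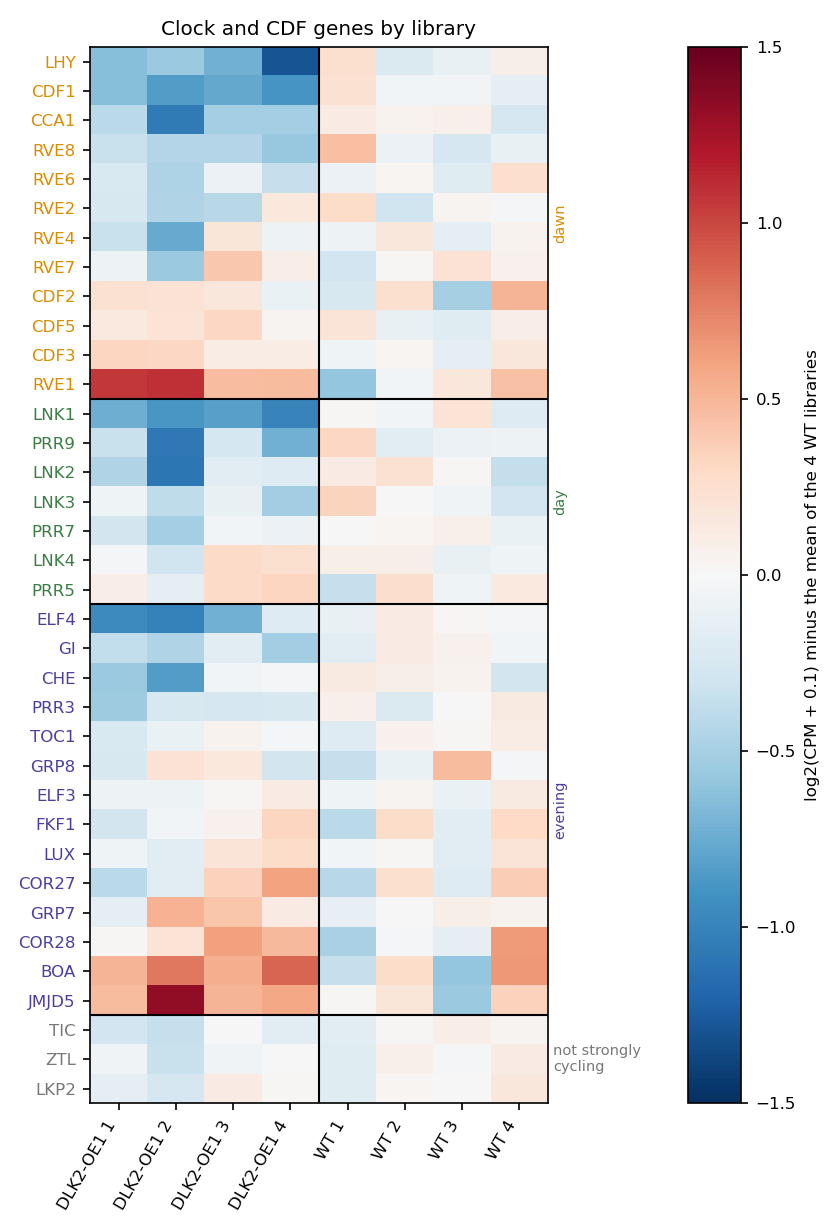
Log2(CPM + 0.1) of each of the 36 clock and CDF genes minus the mean of its 4 WT libraries, one column per library with DLK2-OE1 at the left, rows ordered by phase group and fold change; blue is below and red above the WT mean. LHY, CDF1, CCA1, RVE8 and LNK1 are blue in all 4 DLK2-OE1 columns, while COR27 and FKF1 vary as much within a genotype as between genotypes.

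Windows just before the annotated starts of the dawn pair and of the 2 genes that fell are shown to compare the letters in them. They are RefSeq sequences of build TAIR10.1, read on the strand of the gene and ending at the base before its start, and capitals mark a G-box (CACGTG) or a TCP site (GGNCCCAC). The window of CCA1 is chr2:19245341-19245590 on the plus strand, that of LHY chr1:37872-38121 on the minus strand, that of LNK1 chr5:25676824-25677071 on the minus strand and that of CDF1 chr5:25071112-25071361 on the minus strand. The LNK1 window is 248 bases long because a neighbouring gene begins beyond it, and the others are 250 bases long.
CCA1: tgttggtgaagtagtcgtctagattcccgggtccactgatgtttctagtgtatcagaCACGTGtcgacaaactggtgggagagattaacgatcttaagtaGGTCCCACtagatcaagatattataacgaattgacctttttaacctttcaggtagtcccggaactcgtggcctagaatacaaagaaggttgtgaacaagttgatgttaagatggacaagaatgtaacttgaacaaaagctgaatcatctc
LHY: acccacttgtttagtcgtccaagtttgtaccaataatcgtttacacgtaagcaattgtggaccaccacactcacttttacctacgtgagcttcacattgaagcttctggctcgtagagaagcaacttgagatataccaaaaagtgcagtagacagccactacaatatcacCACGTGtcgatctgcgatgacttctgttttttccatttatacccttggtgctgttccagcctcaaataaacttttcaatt
LNK1: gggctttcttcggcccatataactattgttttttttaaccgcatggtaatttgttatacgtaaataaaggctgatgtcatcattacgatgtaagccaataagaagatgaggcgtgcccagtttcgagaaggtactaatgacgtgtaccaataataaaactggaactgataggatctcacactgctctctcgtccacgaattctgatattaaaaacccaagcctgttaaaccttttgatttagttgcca
CDF1: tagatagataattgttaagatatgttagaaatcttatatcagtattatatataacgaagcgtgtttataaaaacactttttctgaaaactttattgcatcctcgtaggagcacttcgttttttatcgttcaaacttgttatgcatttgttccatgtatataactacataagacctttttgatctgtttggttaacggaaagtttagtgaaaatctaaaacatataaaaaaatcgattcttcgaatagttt
CCA1 and LHY each hold a G-box, the core bound by bHLH and bZIP factors in light responses, and CCA1 also holds a TCP site, the kind of site at which CHE represses CCA1. Searched on both strands over 250 bases in 35 of the 36 members, with the window of COR27 not analysed here, a G-box stood before 10 members, or 28.6%, beside 6.49% of 27442 protein-coding genes. By phase these were 5 of 12 dawn, 3 of 7 day and 2 of 13 evening genes. A TCP site stood before CCA1 and TIC, or 5.7% of members, beside 1.09% of all genes. The windows of LNK1 and CDF1 held neither of these motifs, nor the evening element or the CCA1-binding site. A match is a run of letters and no measure of binding.

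In the evening group edgeR called 0 of 14, beside 3.69% of all genes. At an unadjusted edgeR p under 0.05 stood 3 lower and 1 higher, or 28.6%, beside 26.3% of all genes. DESeq2 called 2 of 14, GI and ELF4, both lower. Of all its genes DESeq2 called 5.02% lower and 13.3% in either direction. Limma-voom called none of the 14, with 265 of all genes called. The median log2 fold change was -0.00087, with 7 negative and 7 positive, and 0.13 without DLK2-OE1 replicates 1 and 2. Median deviations were -0.24, -0.089, 0.11 and 0.12 in DLK2-OE1 replicates 1 to 4 and -0.14, 0.078, -0.049 and 0.13 in WT replicates 1 to 4, so the genotypes overlapped in this summary. ELF4 (AT2G40080), the small subunit of the evening complex, had 5.26, 5.02, 6.22 and 8.97 CPM in DLK2-OE1 leaves, against 9.49, 11.2, 10.4 and 10.1 CPM in WT leaves. DLK2-OE1 replicate 4 came near WT replicate 1, and the other DLK2-OE1 libraries were well below WT. The log2 fold change was -0.70 (SE 0.19, adjusted p = 0.0655 in edgeR), and without DLK2-OE1 replicate 4 it was -0.91 with an edgeR adjusted p of 0.0158. Other single omissions gave ELF4 an edgeR adjusted p of up to 0.189, and without DLK2-OE1 replicates 1 and 2 its log2 fold change was -0.43 with an edgeR adjusted p of 0.306. The other subunits did not separate. ELF3, the scaffold, had a log2 fold change of -0.0022 and LUX, the DNA-binding subunit, one of 0.061, both with overlapping libraries. BOA, a relative of LUX, had 4.46, 5.45, 4.56 and 5.75 CPM in DLK2-OE1 leaves, against 2.42, 3.78, 2.04 and 4.95 CPM in WT leaves, where only WT replicate 4 overlapped (log2 fold change 0.61, SE 0.28, adjusted p = 0.197 in edgeR). BOA shares 1896 bases and LUX 1507 bases with genes on the opposite strand.

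GI (AT1G22770), the scaffold that stabilises ZTL and acts with FKF1 against the CDF proteins, had 74.3, 70.0, 85.3 and 66.9 CPM in DLK2-OE1 leaves, against 86.2, 105, 101 and 93.7 CPM in WT leaves. The highest DLK2-OE1 library lay just below the lowest WT library. The log2 fold change was -0.38 (SE 0.11, adjusted p = 0.0722 in edgeR), and with 1 library left out the edgeR adjusted p ranged from 0.0401, without DLK2-OE1 replicate 3, to 0.188. The blue-light F-box proteins showed smaller differences. FKF1, which targets CDF1, had log2 fold change 0.00049 (SE 0.18), with 15.0, 17.7, 19.0 and 22.8 CPM in DLK2-OE1 leaves and 13.7, 22.0, 16.2 and 22.4 CPM in WT leaves. ZTL, which targets TOC1 and PRR5, and its relative LKP2 had log2 fold changes of -0.11 and -0.059, and with TIC, a nuclear regulator of the morning loop, at -0.20 they form the 3 genes that do not cycle strongly. All 3 were negative and overlapped between genotypes. EdgeR, DESeq2 and limma-voom called 0 of the 3, beside 3.69% of all genes in edgeR and 13.3% in DESeq2. In edgeR 0 had an unadjusted p under 0.05, beside 26.3% of all genes. PRR3 (AT5G60100), which protects TOC1 from ZTL, had 19.6, 24.0, 24.0 and 24.0 CPM in DLK2-OE1 leaves, against 30.1, 24.6, 28.6 and 31.2 CPM in WT leaves. Its genotypes were barely apart, with log2 fold change -0.32 (SE 0.11, adjusted p = 0.107 in edgeR). TOC1, the evening repressor of CCA1 and LHY, had 93.2, 102, 113 and 108 CPM in DLK2-OE1 leaves and 95.3, 114, 111 and 118 CPM in WT leaves, log2 fold change -0.078 (SE 0.10, adjusted p = 0.665 in edgeR).

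JMJD5 (AT3G20810), a jumonji-domain protein of the evening, had 3.36, 6.14, 3.43 and 3.61 CPM in DLK2-OE1 leaves, against 2.42, 2.70, 1.59 and 3.06 CPM in WT leaves. Every DLK2-OE1 library was above every WT library, with replicate 2 the highest, and the log2 fold change was 0.76 (SE 0.28, adjusted p = 0.130 in edgeR). Without DLK2-OE1 replicate 2 the log2 fold change of JMJD5 was 0.50. CHE, a TCP factor that represses CCA1, had 81.5, 67.3, 117 and 119 CPM in DLK2-OE1 leaves, against 132, 128, 124 and 99.4 CPM in WT leaves, for -0.33 (SE 0.19, adjusted p = 0.304 in edgeR), and -0.023 without DLK2-OE1 replicates 1 and 2. COR27 and COR28, cold-regulated night repressors of the clock, varied widely. COR27 had 17.1, 20.3, 28.7 and 34.3 CPM in DLK2-OE1 leaves and 16.9, 26.7, 19.8 and 29.1 CPM in WT leaves. COR28 had 26.6, 30.3, 40.2 and 36.8 CPM in DLK2-OE1 leaves and 18.8, 26.1, 23.9 and 40.9 CPM in WT leaves. Both were lowest in WT replicates 1 and 3 among WT and in DLK2-OE1 replicates 1 and 2 among DLK2-OE1, and so was FKF1. The largest over the smallest library within WT exceeded the fold between genotypes in 27 of the 36 members. GRP7 and GRP8, RNA-binding proteins of a clock-driven output loop, had log2 fold changes of 0.25 and -0.050. GRP7 was above all WT libraries in 3 of 4 DLK2-OE1 libraries, with 632, 1011, 935 and 762 CPM in DLK2-OE1 leaves and 642, 697, 746 and 726 CPM in WT leaves.

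The evening element, AAAATATCT, is the sequence through which CCA1, LHY and the REVEILLE factors act on evening genes. Windows of 3 evening genes that hold it are printed from RefSeq TAIR10.1 on the strand of each gene, with the element in capitals on whichever strand it reads. They are chr2:9266558-9266807 on the minus strand for GRP7, chr5:24674713-24674962 on the plus strand for TOC1 and chr1:25508389-25508638 on the plus strand for FKF1.
GRP7: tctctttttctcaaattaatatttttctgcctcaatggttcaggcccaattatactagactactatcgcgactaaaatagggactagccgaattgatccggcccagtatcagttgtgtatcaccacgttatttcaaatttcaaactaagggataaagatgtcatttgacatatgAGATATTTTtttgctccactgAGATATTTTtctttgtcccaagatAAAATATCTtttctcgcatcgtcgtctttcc
TOC1: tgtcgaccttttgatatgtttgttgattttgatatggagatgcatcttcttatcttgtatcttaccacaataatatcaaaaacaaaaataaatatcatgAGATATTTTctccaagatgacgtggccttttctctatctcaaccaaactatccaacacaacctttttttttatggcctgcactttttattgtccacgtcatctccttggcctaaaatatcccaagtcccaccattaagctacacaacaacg
FKF1: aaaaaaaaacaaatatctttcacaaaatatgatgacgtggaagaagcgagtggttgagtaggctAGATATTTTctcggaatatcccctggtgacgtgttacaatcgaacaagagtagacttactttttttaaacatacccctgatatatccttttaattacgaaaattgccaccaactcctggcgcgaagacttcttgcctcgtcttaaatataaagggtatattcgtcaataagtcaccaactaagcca
GRP7 holds 3 copies within 76 bases of its start, and TOC1 and FKF1 hold 1 each farther out. The element stood before 6 of the 13 evening genes searched, or 46.2%, the others being LUX, BOA and GRP8, and before PRR5 and RVE7. That makes 8 of the 35 members searched, or 22.9%, beside 647 of 27442 protein-coding genes, or 2.36%. Since the element is known from evening genes and the members were grouped by known peak time, these shares are not an independent result. All windows were searched in full, also those of RVE4, LKP2 and LNK1, which reach into other annotated genes. The related CCA1-binding site AAAAATCT stood before 6 members, or 17.1%, beside 6.69% of all genes. No letter run of the evening element overlaps one of the CCA1-binding site, the G-box or the TCP site in these windows. None of the 8 genes with the element was called by edgeR, limma-voom or DESeq2, beside 3.69% of all genes in edgeR and 13.3% in DESeq2. With 8 genes, 0 calls cannot set genes with the element apart from all genes. Their log2 fold changes ran from -0.078 to 0.61.

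**Figure D4:**
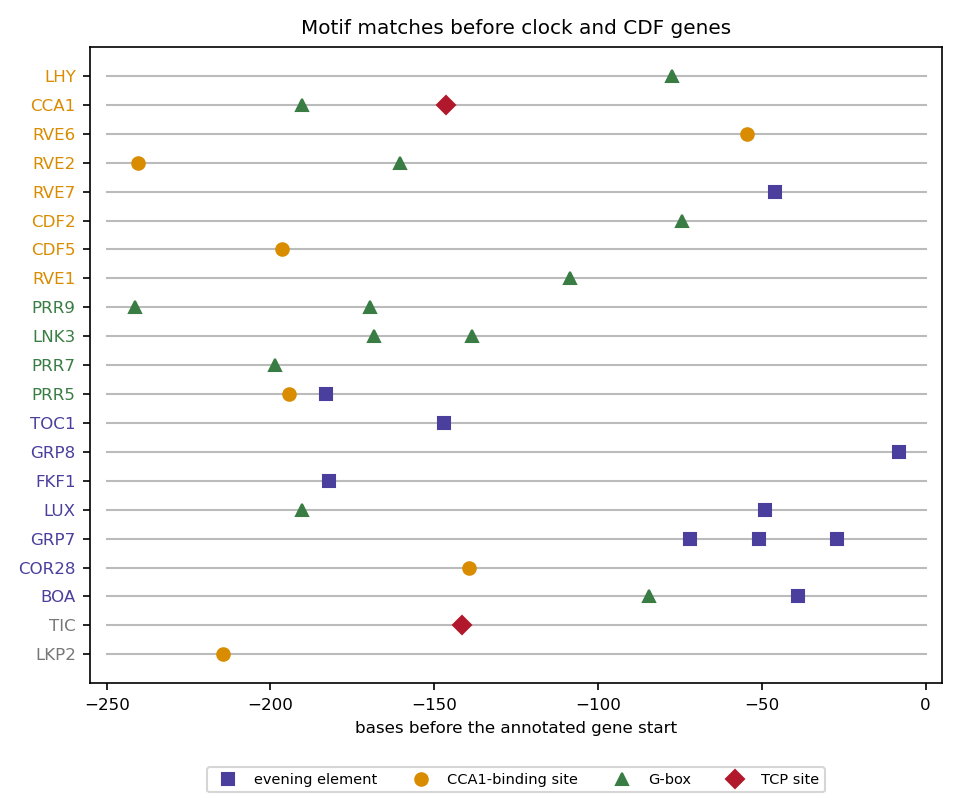
Positions of the 4 motifs in the 250 bases before the annotated start of each of the searched clock or CDF genes with a match, in bases before the start, rows grouped by phase; squares are evening elements, circles CCA1-binding sites, triangles G-boxes and diamonds TCP sites. Squares sit mostly in rows of evening genes and triangles mostly in rows of dawn and day genes.

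Levels per length, in the deposited FPKM, spanned 846-fold between members in WT. GRP7 was the highest with 1068 ± 291 FPKM in DLK2-OE1 and 801 ± 66.4 FPKM in WT, and GRP8 followed with 273 ± 72.3 FPKM in DLK2-OE1 and 250 ± 65.4 FPKM in WT (SD, n = 4 each). CHE and PRR7 came next, at 93.0 ± 16.4 and 94.1 ± 4.72 FPKM in DLK2-OE1 and at 107 ± 9.81 and 99.4 ± 3.08 FPKM in WT. At the other end, JMJD5 had 2.78 ± 1.22 FPKM in DLK2-OE1 and 1.48 ± 0.398 FPKM in WT, and LHY had 0.604 ± 0.183 FPKM in DLK2-OE1 and 0.947 ± 0.143 FPKM in WT. Between these, 29 of the 35 neighbouring pairs in the WT order had overlapping ranges over WT libraries, so most neighbours do not differ beyond their spread. The median WT level was 6.62 FPKM in the dawn group, 25.5 in the day group and 22.1 in the evening group. On the FPKM scale the median log2 difference of DLK2-OE1 from WT over all genes was 0.13 with a pseudocount of 0.1, against 0.0039 on the count scale, so FPKM values of the genotypes are read relative to that shift.

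**Figure D5:**
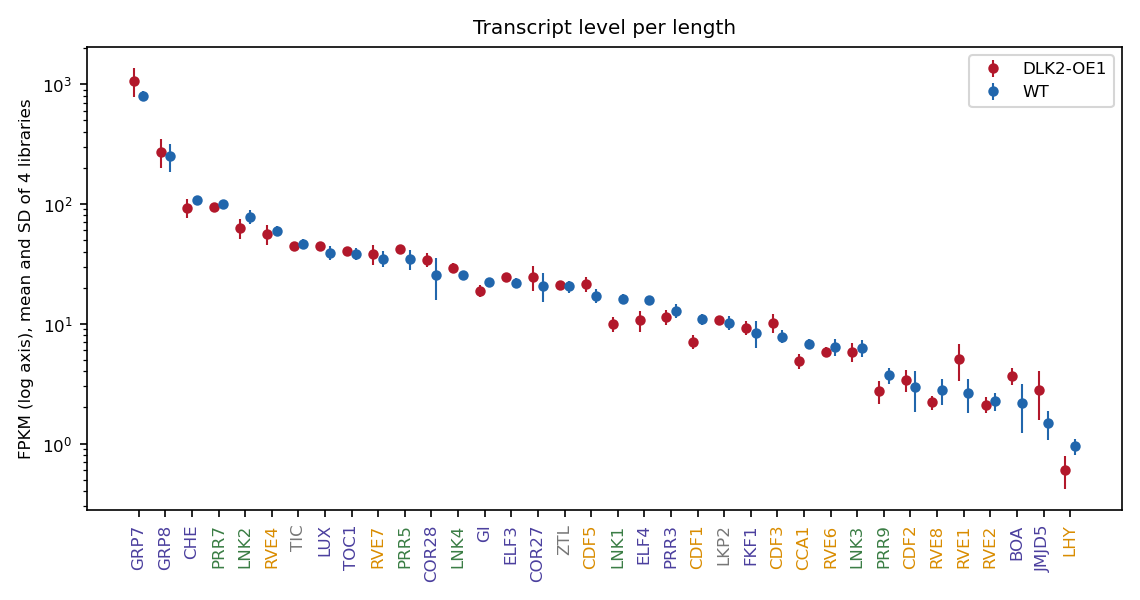
Deposited FPKM of each of the 36 clock and CDF genes on a log axis, as mean and SD of 4 libraries, DLK2-OE1 in red at the left of each pair and WT in blue, ordered by the WT mean with gene names coloured by phase group. GRP7 stands highest at 801 FPKM in WT and LHY lowest at 0.947 FPKM in WT.

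A list of 35 further genes with roles in the clock or its light input, none of them members, had 33 tested. One, SPA1, fell, or 3.0%, beside 3.69% of all genes, and 0 were called higher by edgeR. At an unadjusted edgeR p under 0.05 stood 6 lower and 1 higher, or 21.2%, beside 26.3% of all genes. SPA1, a partner of the COP1 ubiquitin ligase in the dark, had 60.9, 48.5, 64.4 and 58.4 CPM in DLK2-OE1 leaves, against 99.5, 91.5, 108 and 88.4 CPM in WT leaves, without overlap. Its log2 fold change was -0.74 (SE 0.11, adjusted p = 0.0200 in edgeR), and in edgeR the adjusted p was 0.0720 or 0.0893 when WT replicate 1 or 3 was dropped, 0.0747 when DLK2-OE1 replicate 1 was dropped and 0.0607 when DLK2-OE1 replicates 1 and 2 were both dropped. The median of the 33 was -0.031, with 14 positive and 19 negative. DESeq2 called 4 of the 35, beside 13.3% of all its genes. These were SPA1 and ELF4-L1 lower and PHYA and AT2G34140 higher, names given here after their values were seen.

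Of 12 photoperiodic targets and clock outputs, all tested, FT and TSF fell in edgeR, or 16.7%, beside 3.69% of all genes called and 1.58% called lower, and edgeR called none of the other 10. Limma-voom called FT alone, and DESeq2 called 6 of the 12 lower, beside 5.02% of its genes, adding CO, GBSS1, CBF2 and CAT2. None was called higher by edgeR, limma-voom or DESeq2. At an unadjusted edgeR p under 0.05 stood 6 lower, or 50.0%, beside 12.0% of all genes, and 0 higher, beside 14.3%. The median log2 fold change was -0.69, with 11 of 12 negative, beside 0.0039 over all genes, and was -0.34 with 9 of 12 negative when DLK2-OE1 replicates 1 and 2 were left out. The median deviation of the 12 from their WT mean, on the log2 CPM scale, was -0.68, -1.29, -0.42 and -0.24 in DLK2-OE1 replicates 1 to 4. FT (AT1G65480), the leaf-made flowering signal that CO activates and the CDF proteins repress, had 3.26, 1.89, 7.13 and 4.40 CPM in DLK2-OE1 leaves, against 9.67, 10.8, 13.5 and 15.9 CPM in WT leaves, with no overlap (log2 fold change -1.59, SE 0.36, adjusted p = 0.0467 in edgeR). TSF (AT4G20370), its paralog, had 0.200, 0.257, 0.429 and 0.226 CPM in DLK2-OE1 leaves, against 0.943, 1.18, 0.696 and 0.714 CPM in WT leaves (log2 fold change -1.65, SE 0.37, adjusted p = 0.0467 in edgeR). The TSF values rest on 4, 6, 8 and 4 counts in DLK2-OE1 and 16, 24, 14 and 14 counts in WT. The FT call was lost on leaving out any 1 of 6 libraries, at edgeR adjusted p-values of 0.116, 0.0926, 0.147 and 0.0749 when a WT library was dropped, in order of replicate, and 0.144 and 0.0573 when DLK2-OE1 replicate 1 or 2 was dropped. The TSF call was lost without the same 6 libraries, at 0.126, 0.106, 0.139 and 0.0613 when a WT library was dropped and 0.148 and 0.103 when DLK2-OE1 replicate 1 or 2 was dropped. With DLK2-OE1 replicates 1 and 2 both left out, the log2 fold change was -1.10 for FT (adjusted p = 0.125 in edgeR) and -1.40 for TSF (adjusted p = 0.260 in edgeR). CO (AT5G15840), the activator of FT, had 2.40, 1.89, 2.79 and 2.26 CPM in DLK2-OE1 leaves, against 5.43, 4.03, 4.32 and 2.96 CPM in WT leaves, lower in every DLK2-OE1 library (log2 fold change -0.84, SE 0.23, adjusted p = 0.0659 in edgeR and 0.0146 in DESeq2). PIF4 and PIF5, clock-gated growth regulators, had log2 fold changes of -0.18 and -0.11 with edgeR adjusted p-values of 0.400 and 0.692.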

How the data were processed

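RNA of rosette leaves was sequenced in 8 libraries, 4 of DLK2-OE1 and 4 of WT. Per the labels' protocols, mRNA was captured on oligo(dT) beads and made into libraries with a NEBNext Ultra kit for Illumina. Per the submitters' processing notes, the tools were RSEM, HISAT2, StringTie 1.3.1, Bowtie2 2.2.8, fastp 0.18.0, edgeR and DESeq2, and the build was TAIR10. No source used here says which tool counted, with what strand setting or on which annotation release. The deposited files hold, per the file headers, a count and an FPKM value per gene for each library. The sources do not say if the authors counted reads or rounded an estimate. Reads of genes that overlap another gene, 11 of the members, or of close paralogs are uncertain.

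Counts went into edgeR 4.0.16 (R 4.3.3), with genes kept by filterByExpr on genotype, TMM scaling, robust estimateDisp and glmQLFit, glmQLFTest, and Benjamini-Hochberg adjustment over all 18155 genes, called under 0.05. The common biological coefficient of variation was 0.222. The standard error is the size of the log2 fold change over the square root of F. DLK2 was also compared by an exact two-sided permutation test over 70 assignments of libraries (SciPy 1.17.1), with p = 0.0286, the smallest it can reach here. Library totals were 18097159 to 22139801 counts, and intervals or errors cover counting and library spread only. The procedure was tested on simulated counts.

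By rule, full values are given for members past the threshold and for up to 10 more whose libraries do not overlap, and from the other lists for members past the threshold and for CO, FT, TSF, PIF4 and PIF5. Library values of other members and of AT2G34140 were added after their values were seen. The members, the phase groups, the lists and the markers were chosen with earlier results of these data known. Phase groups follow textbook peak times. The names RVE6, CDF5 and COR28 come from common usage for AT5G52660, AT1G69570 and AT4G33980. Positions and sequences are from RefSeq TAIR10.1, matched by locus, and the deposited files carry no coordinates. A correlation across libraries is not given, since 4 libraries per genotype are too few. Replicate numbers were checked for pairing: same-number libraries correlated at -0.0951 to 0.123 in their deviations from the group means, with 1 of 4 pairs over 0.1, so no block was used. The alternatives comprised DESeq2 1.42.0, its size factors in edgeR, a fit with no filter, one that asked 10 counts in each of 4 libraries, a replicate block, and limma 3.58.1 as limma-voom or as limma-trend on log2(FPKM + 0.1) and log2(FPKM + 1), where genes needed an FPKM of 1 in 4 libraries. Each library was also left out in turn. Leaving out both DLK2-OE1 replicates 1 and 2 was chosen after seeing the data.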

Additional observations from a re-analysis of the deposited data

Results flagged for a closer look

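Dixon's test at the 95% level was applied to the 4 libraries of each genotype for 51 genes, 102 groups in all, and marked 4 libraries that stand apart from the other 3. Chance alone marks about 1 group in 20. ZTL in DLK2-OE1 replicate 2 was low at 39.9 CPM, with the other DLK2-OE1 libraries between 48.2 and 49.9 CPM. JMJD5 in DLK2-OE1 replicate 2 was high at 6.14 CPM, with the others between 3.36 and 3.61 CPM. PRR3 in DLK2-OE1 replicate 1 was low at 19.6 CPM, while the other 3 DLK2-OE1 libraries agreed closely at 24.0 CPM. PRR9 in WT replicate 1 was high at 8.79 CPM, with the other WT libraries between 6.34 and 6.68 CPM. The log2 fold change of PRR9 was -0.45 without that WT library and -0.59 with it.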

How the results depend on the processing

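Across the 36 members, DESeq2 size factors, the filter of at least 10 counts in 4 libraries and the replicate block kept every direction and every side of the threshold. DESeq2 called 7 members, limma-trend on log2(FPKM + 1) called 1, LNK1, and the fit without DLK2-OE1 replicates 1 and 2 called 1, also LNK1. Over all genes, against 670 calls, DESeq2 gave 2782, limma-voom 265, limma-trend 355 with a pseudocount of 0.1 and 288 with 1, the replicate block 245, and the fit without DLK2-OE1 replicates 1 and 2 gave 60. The list of other clock-associated genes had 1 call, against 4 by DESeq2, 2 by each limma-trend fit and 0 without DLK2-OE1 replicates 1 and 2. The photoperiodic and output list had 2 calls, against 6 by DESeq2, 1 by limma-voom, 1 by each limma-trend fit, 1 under the replicate block, where TSF had an edgeR adjusted p of 0.102, and 0 without DLK2-OE1 replicates 1 and 2. The markers of sample makeup had 7 calls, against 0 by limma-voom, 2 by limma-trend on log2(FPKM + 1), 3 under the replicate block and 1 without DLK2-OE1 replicates 1 and 2. The cause of these differences was not tested.

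Leaving out 1 library at a time gave 0 to 4 called members, 0 to 2191 called genes, 0 to 2 calls in the list of other clock-associated genes, 0 to 4 in the photoperiodic and output list, 0 to 10 among the markers, and 11 to 18 members without overlap between genotypes. Over all genes the share without overlap ran from 16.4% to 25.4% under the same omissions. The 0 called genes came without WT replicate 3, where edgeR had 3599 genes at an unadjusted p under 0.05. The median log2 fold change of the dawn members was -0.057 without DLK2-OE1 replicates 1 and 2.

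Some signs turned. Without DLK2-OE1 replicates 1 and 2 the log2 fold change was 0.060 for RVE4, 0.26 for RVE7, 0.020 for TOC1, 0.077 for LKP2, 0.085 for ELF3, -0.0058 for CDF2, 0.0049 for PIF4 and 0.14 for PIF5. FKF1 was at -0.0095 with no filter and -0.0038 in DESeq2. ELF3 was at 0.00076 in limma-voom and at 0.012 and 0.020 on log2(FPKM + 0.1) and log2(FPKM + 1), and GRP8 at 0.0044 on log2(FPKM + 1), with FPKM values taken relative to the median of all genes. With 1 library left out the ranges were -0.17 to 0.15 for RVE7, -0.017 to 0.17 for LNK4, -0.12 to 0.090 for FKF1, -0.13 to 0.0016 for LKP2, -0.051 to 0.031 for ELF3, -0.019 to 0.13 for LUX, -0.076 to 0.26 for CDF2, -0.078 to 0.26 for COR27, -0.16 to 0.13 for GRP8 and -0.22 to 0.017 for PIF5.

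The labels do not say if replicate numbers pair the libraries, and correlations over 4 libraries per genotype cannot exclude it. Of the DLK2-OE1 libraries, 1 of 4 correlated best with the WT library of its own number, and the block left the 2 called members called. Low counts limit LHY, with 18 to 55 counts a library, and LHY is not in the FPKM fits.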
